A study of Mus musculus with 6 samples.

Results

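The enzymes that break down nucleosides and their bases were followed in livers of obese diabetic mice that had received a virus for a bisphosphatase-deficient PFK-2 or a control virus. They comprised 10 genes. The pyrimidine branch held Upp1, Upp2, Cda, Dpyd, Dpys and Upb1, and the purine branch Ada, Pnp, Xdh and Uox. All probe sets (groups of array probes for 1 transcript) that the platform annotation names with exactly 1 of these symbols were used, 14 of the 22626 probe sets analysed. The genes were chosen by their place in the pathway, but with the differences between the groups in these data already known, so these differences are descriptions and are no independent evidence about the pathway.

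The BPD group was 3 male KK/H1J mice injected by tail vein with an adenovirus for PFK-2/FBPase-2 without bisphosphatase activity, and the GFP group was 3 such mice injected with an adenovirus for green fluorescent protein. KK/H1J mice are inbred and develop obesity with diabetes on a polygenic background. All animals were 12 to 14 weeks old, weighed about 35 g, carried an adenovirus and were freely fed, and none was uninjected. Livers were taken 7 days after injection and RNA of each mouse was hybridised to an array of its own. BPD mice are numbered 23, 28 and 36, and GFP mice 22, 29 and 31.

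Pyrimidine nucleosides are first deaminated or split to free uracil or thymine, which a chain of reductase, ring-opening and amide-cleaving enzymes turns into beta-amino acids, ammonia and carbon dioxide. Purine nucleosides are deaminated and split to hypoxanthine and guanine, which are oxidised to urate, and mouse liver oxidises urate further in its peroxisomes. Liver is a main site of both branches, and its uridine phosphorylase helps to set the uridine level of blood.

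In the BPD livers the 5 pyrimidine genes that could be compared were all called lower once arrays were centred on their medians, where 22.2% of all genes were called lower. The call of Cda was lost in 5 alternatives, and after centring on hepatocyte markers Upp2, Dpys and Upb1 were still called lower and Dpyd and Cda were not. Of these genes only Upp2 lay below the range of single hepatocyte markers after median centring, -1.78 to -0.54 on the log2 scale. The uridine phosphorylase Upp2 was 10.5-fold lower, and Dpyd, Dpys and Upb1, which carry uracil to beta-alanine, were 2.32-, 2.82- and 3.33-fold lower. In the purine branch the urate oxidase Uox was 1.83-fold lower, while Pnp and Xdh differed less and did not pass the test. Uox was not called after quantile normalization (log2 difference -0.24) or after centring on hepatocyte markers (0.12). Each fold compares 3 BPD with 3 GFP livers on a log2 scale after arrays were centred on their medians.

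Upp2, Dpyd, Upb1 and Uox stand at the entry, in the middle and at the ends of the branches and were called lower after median centring. Promoter sequences are shown for these genes, to set their start sites side by side. They come from RefSeq on build GRCm38.p6, with 250 bases before and 50 bases after the start, read 5′ to 3′ in the direction of the gene. Of the 10 genes 8 had an entry, with 11 start sites in all, and Dpys and Xdh had none. Capitals mark matches on either strand to the TATA box TATAAA, the box CCAAT, the GC box GGGCGG and the nuclear receptor half-site AGGTCA. No 2 marked matches overlap in the sequences printed. Upp2 has 2 start sites, whose printed windows are chr2:58567084-58567383 and chr2:58754934-58755233 on the plus strand. The window of Dpyd is chr3:118561930-118562229, that of Upb1 chr10:75406661-75406960 and that of Uox chr3:146596899-146597198, all on the plus strand.
Upp2, upstream start: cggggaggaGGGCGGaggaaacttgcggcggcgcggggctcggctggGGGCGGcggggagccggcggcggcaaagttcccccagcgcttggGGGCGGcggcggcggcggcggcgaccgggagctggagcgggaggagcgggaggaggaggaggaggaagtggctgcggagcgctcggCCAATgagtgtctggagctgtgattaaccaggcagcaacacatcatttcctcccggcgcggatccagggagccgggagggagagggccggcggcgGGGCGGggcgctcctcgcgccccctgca
Upp2, downstream start: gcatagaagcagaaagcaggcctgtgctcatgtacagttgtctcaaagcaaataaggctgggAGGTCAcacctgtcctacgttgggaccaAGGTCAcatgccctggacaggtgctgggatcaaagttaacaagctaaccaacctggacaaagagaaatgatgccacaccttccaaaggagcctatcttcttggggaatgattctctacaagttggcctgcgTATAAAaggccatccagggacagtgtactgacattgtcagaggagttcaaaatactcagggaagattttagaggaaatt
Dpyd: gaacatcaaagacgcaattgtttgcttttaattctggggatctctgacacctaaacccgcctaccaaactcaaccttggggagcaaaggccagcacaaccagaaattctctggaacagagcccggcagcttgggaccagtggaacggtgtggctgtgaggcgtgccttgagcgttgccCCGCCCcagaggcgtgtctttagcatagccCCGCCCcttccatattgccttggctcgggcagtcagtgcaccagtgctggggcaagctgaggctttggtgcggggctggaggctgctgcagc
Upb1: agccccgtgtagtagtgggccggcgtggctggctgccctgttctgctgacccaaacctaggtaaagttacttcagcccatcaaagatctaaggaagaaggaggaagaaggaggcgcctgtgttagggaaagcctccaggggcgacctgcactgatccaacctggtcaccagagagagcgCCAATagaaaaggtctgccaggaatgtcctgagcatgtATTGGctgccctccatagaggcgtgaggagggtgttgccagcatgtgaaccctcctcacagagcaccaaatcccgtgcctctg
Uox: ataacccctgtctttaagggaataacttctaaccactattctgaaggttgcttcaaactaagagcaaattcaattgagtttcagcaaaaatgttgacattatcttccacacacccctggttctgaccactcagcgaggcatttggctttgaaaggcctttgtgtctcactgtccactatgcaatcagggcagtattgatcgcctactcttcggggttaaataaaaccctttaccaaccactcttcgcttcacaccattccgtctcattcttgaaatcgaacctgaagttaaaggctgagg

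The starts of Upp2 were unlike each other. The more upstream one had 75.3% G and C, 37 CpG pairs, 4 GC boxes and 1 CCAAT match, and the downstream one had 47.0% G and C, 2 CpG pairs, a TATA box whose first base lies at position -29, and AGGTCA at positions -188 and -160. Over all 32851 promoters of the same length, the median was 52.7% G and C with 7 CpG pairs. TATAAA was found in 13.6% of them, CCAAT in 37.4%, GGGCGG in 35.7% and AGGTCA in 16.3%. Dpyd had 2 GC boxes, Upb1 had 2 CCAAT matches and Uox had none of the 4 motifs in this window. A match is a description of the letters and was not tested as a site, and which start of Upp2 the livers used was not tested.

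The genes were compared with limma over the whole table, and called when the adjusted p was under 0.05. The filter on dim probe sets left 8 of the 10 genes, and Upp1 and Ada were too dim. All 8 had signals of at least 323 in every liver, above the filter level of 101, so none passed it through 1 group only. Of these 8 genes 6 were called lower in BPD livers and 0 higher, against 22.2% of all 8151 genes lower and 8.75% higher. The median of the 5 pyrimidine genes was -1.50 and that of the 3 purine genes -0.54 on the log2 scale, where the median of all genes was -0.22. All 8 genes had every BPD liver below every GFP liver after centring, as had 36.4% of all genes, so this pattern is common in the table.

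**Figure D1:**
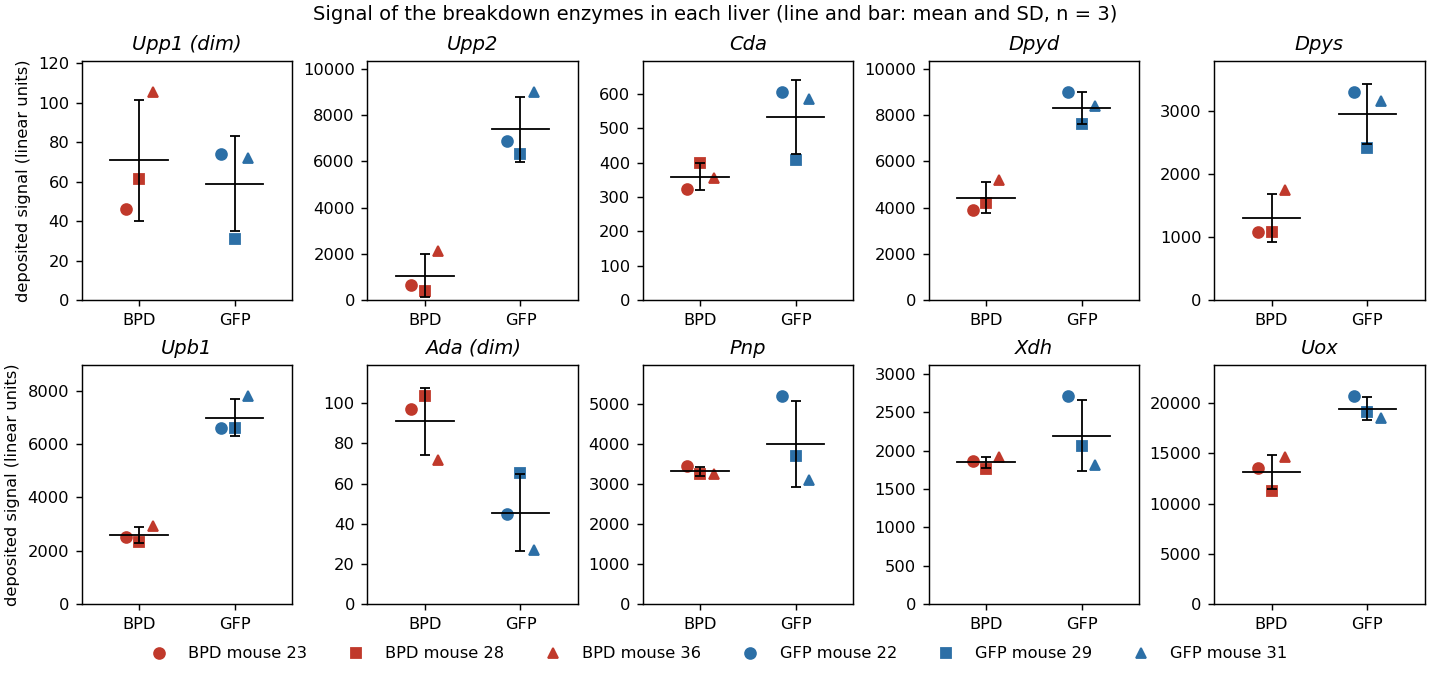
Deposited signal (linear units, vertical axis from 0) of the 10 genes in each BPD and GFP liver, with 1 point per mouse, the mean as a line and the SD as a bar (n = 3 per group), using the probe set that stands for each gene or, for Upp1 and Ada, the only one. In Upp2, Cda, Dpyd, Dpys, Upb1 and Uox all BPD points lie below all GFP points, while in Pnp and Xdh the GFP points spread across the level of the BPD points. After centring 36.4% of all genes had every BPD liver below every GFP liver, and the share on the deposited scale was not counted.

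The scale of the arrays bears on every size given. The arrays had been deposited with equal trimmed means, but the median signal was 174 to 197 on BPD arrays and 135 to 157 on GFP arrays. Without centring the median gene differed by 0.08 and with quantile normalization by -0.06. On the deposited scale 5 of the 8 genes were called lower (11.1% of all genes lower, 17.2% higher). With quantile normalization 5 were called lower (12.9% of all genes lower, 12.7% higher), and none was called higher under either. The 4 genes called lower under all 3 scalings were Upp2, Dpyd, Dpys and Upb1. The share of all genes called lower under all 3 was not counted. Relative to the median gene, the pyrimidine genes had a median of -1.28 after centring and -1.08 after quantile normalization, and the purine genes -0.32 and -0.09. Centring moves all genes of an array alike, so the deposited scale gives the same relative values by construction.

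Markers of other cell populations also differed between the groups. Of 17 hepatocyte markers bright enough to test, 16 were called lower in BPD livers, with a median difference of -0.87, against 22.2% of all genes called lower. Single markers ranged from -1.78 (Fah) to -0.54 (Alb). On the deposited scale 12 of the 17 were called lower (median -0.57), and after quantile normalization 6 (median -0.21, or -0.15 relative to the median gene). The shares of all genes called lower were 11.1% and 12.9%, respectively. Their summed deposited signal was 164685 to 179539 in BPD livers and 246071 to 262110 in GFP livers. Albumin, transthyretin and Hnf4a, which define hepatocytes, were bright in all 6 livers, so the tissue label held. Summed macrophage markers were 19055 to 41099 in BPD and 5460.2 to 16372 in GFP livers (8 of 12 called higher, 0 lower), neutrophil markers 1886 to 8345 and 513 to 810.4 (4 of 6 higher), and markers of dividing cells 10556 to 13062 and 1535 to 2477 (12 of 12 higher). Against these counts and those that follow, 8.75% of all genes were called higher after median centring. Stellate cell and matrix genes summed to 12021 to 28677 in BPD and 6804 to 8011 in GFP livers (4 of 12 higher), T and NK cell markers to 1341 to 1930.1 and 384 to 1129 (2 of 4 higher), and bile duct cell markers to 1627 to 2353 and 239 to 364 (2 of 2 higher). The macrophage and Kupffer cell markers not called were Clec4f (-0.58), Vsig4 (0.48), Csf1r (1.19) and Mpeg1 (1.13). Cd163 and Marco were too dim to test. Of the stellate cell and matrix genes Col1a1, Col3a1, Vim and Lgals1 were called. Des, Lrat, Rgs5, Col1a2, Acta2, Reln, Pdgfrb and Dcn were not. The 2 bile duct markers called were Krt23 (2.11 ± 0.36) and Cd24a (3.61 ± 0.28), and Cd24a made up most of the sum in BPD livers. The other 5, Krt19, Krt7, Epcam, Sox9 and Cftr, were too dim to test, so no change of bile duct cells is read from these counts. B cell, endothelial, erythroid, gut and pancreas sums overlapped between the groups, but single markers did not all stay level. Of 4 erythroid markers 2 were called higher, Slc4a1 (2.99 ± 0.36) and Tfrc (1.32 ± 0.27), and Alas2 was called lower (-1.62 ± 0.20). Of 9 endothelial markers Lyve1 was called higher (1.69 ± 0.36) and Kdr lower (-0.62 ± 0.20), though Kdr was not called on the deposited scale or after quantile normalization. None of the 3 B cell, 1 gut and 2 pancreas markers was called after median centring. No marker is listed at 0. Fewer hepatocytes and less RNA per hepatocyte cannot be told apart in these bulk samples, and the part of either in the results below was not tested. No probe set here is named Pfkfb1, so the injected gene was not analysed here.

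To set the enzymes beside the hepatocyte markers directly, the arrays were also centred on the median of those markers, a scaling added after the data had been seen. Upp2 (-2.40 ± 0.43, SE), Upb1 (-0.74 ± 0.14) and Dpys (-0.51 ± 0.21) were still called lower on this scale, with adjusted p of 9.3e-04, 0.0012 and 0.045. Dpyd (-0.22 ± 0.14), Cda (0.16 ± 0.22) and Uox (0.12 ± 0.11) were not called, and Xdh (0.46 ± 0.17) and Pnp (0.45 ± 0.18) were called higher, with adjusted p of 0.030 and 0.045. This scaling rests on markers whose own difference varied with the scaling, as given above. It uses their median, while single markers ranged from -1.78 to -0.54 after median centring. Upb1 (-1.73), Dpys (-1.50), Dpyd (-1.21), Uox (-0.87) and Cda (-0.83) lay within that range. Upp2 (-3.39) lay below it, and Pnp and Xdh just above it. The scaling moved the median of all genes to 0.77, and 2.44% of all genes were called lower and 73.5% higher, so the calls of Xdh and Pnp are those of most genes.

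**Figure D2:**
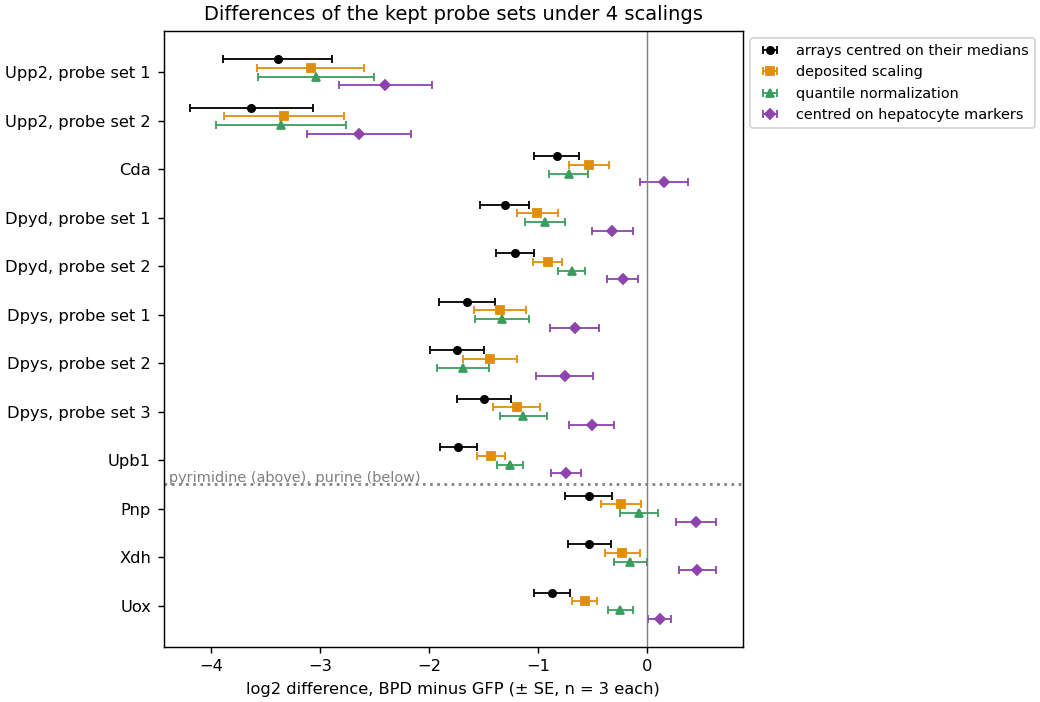
Log2 difference, BPD minus GFP, with its SE (n = 3 livers each) for the 12 kept probe sets of 8 genes, under 4 scalings of the arrays; pyrimidine enzymes stand above the dotted line and purine enzymes below it. Upp2 stays below -2 under each scaling, Upb1 and Dpys stay below 0 by more than their SE, and Pnp, Xdh, Uox and Cda cross to positive values when the arrays are centred on hepatocyte markers.

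Uridine phosphorylase splits uridine into uracil and ribose 1-phosphate and stands at the entry of the pyrimidine branch. Its liver form Upp2 (probe set 1424969_s_at) had signals of 665, 420.0 and 2123 in BPD livers 23, 28 and 36, against 6873, 6319 and 8982 in GFP livers 22, 29 and 31. The groups did not overlap, and the lowest GFP liver was far above the highest BPD liver. BPD livers averaged 1069 ± 921 and GFP livers 7391 ± 1405 (SD, n = 3 each), and the log2 difference was -3.39 ± 0.50 (SE, limma adjusted p = 0.0018). The other probe set, 1451548_at, read 452, 142 and 881 in BPD and 3912, 2956 and 5790.3 in GFP livers, a log2 difference of -3.63 ± 0.56. Of all 8151 genes only 6 ranked below Upp2. The size depended on single BPD livers, since the difference was -4.07 without mouse 36 and -2.85 without mouse 28.

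Within the BPD group Upp2 had the widest relative spread of the 8 kept genes. Its coefficient of variation was 86.1% in BPD livers and 19.0% in GFP livers, and liver 36 had 5.06 times the signal of liver 28.

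The paralogue Upp1, which catalyses the same reaction and is the widely expressed form, was dim. Its signals were 46.2, 61.1 and 105 in BPD livers, against 73.8, 31.3 and 72.1 in GFP livers. The groups overlapped. In the fit without the filter the log2 difference was -0.09 ± 0.38 (adjusted p = 0.89, where 16.1% of 22626 probe sets were called), so a difference of Upp1 could not be seen at this signal.

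Cda, the cytidine deaminase that feeds uridine and deoxyuridine into the branch, had signals of 323, 399.7 and 355 in BPD livers, against 604, 407 and 585 in GFP livers. BPD liver 28 and GFP liver 29 were nearly level. The log2 difference was -0.83 ± 0.21 (limma adjusted p = 0.017). This call was lost on the deposited scale (-0.53, adjusted p = 0.067) and without BPD mouse 23 or 28 or GFP mouse 22 or 31, with adjusted p between 0.051 and 0.061.

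Dpyd, the dihydropyrimidine dehydrogenase, reduces uracil and thymine and is the rate-limiting enzyme of their breakdown. Its brighter probe set, 1427946_s_at, read 3924, 4195 and 5197 in BPD livers and 8984, 7596 and 8377 in GFP livers. The GFP livers were close to each other, and BPD liver 36 was the highest of its group. The log2 difference was -1.21 ± 0.18 (limma adjusted p = 0.0017). The other probe set read 1419.8, 1284 and 1802 in BPD and 2963, 2478 and 3687 in GFP livers, a difference of -1.31 ± 0.23.

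Dpys, the dihydropyrimidinase, opens the reduced ring. Its brightest probe set, 1436291_a_at, read 1086, 1077 and 1749 in BPD livers and 3298, 2414 and 3156 in GFP livers. BPD liver 36 was again the highest of its group and still below each GFP liver. The log2 difference was -1.50 ± 0.25 (limma adjusted p = 0.0030). Of its other probe sets, 1425688_a_at read 693, 788 and 1376 in BPD and 2391, 2209 and 2449.8 in GFP livers (-1.65 ± 0.26). The dimmest, 1425689_at, read 79.0, 124 and 169 in BPD and 395, 349.6 and 314 in GFP livers (-1.74 ± 0.25). The 3 probe sets thus gave differences of the same direction and within about 1 SE of each other.

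Upb1, the beta-ureidopropionase, releases beta-alanine or beta-aminoisobutyrate with ammonia and carbon dioxide and ends the uracil and thymine chain. Its probe set 1460244_at read 2507, 2331 and 2911 in BPD livers, against 6593, 6581 and 7798 in GFP livers. Both groups were tight and far apart, with means of 2583 ± 298 and 6991 ± 699 (SD, n = 3 each). The log2 difference was -1.73 ± 0.17, and the limma adjusted p of 4.4e-04 was the smallest among the 8 genes.

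The purine branch begins with Ada, which turns adenosine into inosine and is abundant in lymphoid and gut tissue. Its signals were 97.3, 104 and 71.9 in BPD livers, against 44.8, 65.2 and 26.7 in GFP livers. The deposited signals of the groups did not overlap, but those of centred arrays did. Without the filter the log2 difference was 0.53 ± 0.28 (limma adjusted p = 0.22). T and NK cell markers, a population rich in Ada, moved the same way, and their part in the Ada signal was not tested.

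Pnp, the purine nucleoside phosphorylase, splits inosine and guanosine to hypoxanthine and guanine. It read 3450.3, 3251 and 3270.3 in BPD livers, against 5213, 3713 and 3100.3 in GFP livers. The BPD livers were nearly equal, whereas GFP liver 22 stood above the other GFP livers, and GFP liver 31 was lower than all BPD livers before centring. The log2 difference was -0.54 ± 0.22 (limma adjusted p = 0.090), and it was -0.29 without GFP mouse 22. A further probe set that the annotation names for both Pnp2 and Pnp was left out by the rule. BPD livers averaged 1319 ± 35.2 there, and GFP livers 1584 ± 419 (SD, n = 3 each). Pnp2 is a near-identical neighbour of Pnp, and whether the Pnp probe set also reads it was not tested.

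Xdh, the xanthine dehydrogenase, oxidises hypoxanthine to xanthine and xanthine to urate. Its signals were 1859.7, 1766 and 1915 in BPD livers, against 2710.4, 2057 and 1816 in GFP livers. As for Pnp, the BPD livers agreed closely, with a coefficient of variation of 4.08% against 21.1% in GFP livers, and GFP liver 22 was the highest. The log2 difference was -0.53 ± 0.20 (limma adjusted p = 0.076). It did not pass with any mouse left out, and without GFP mouse 22 it was -0.32.

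Uox, the urate oxidase, is a peroxisomal enzyme of mouse liver that humans lack, and starts the conversion of urate to allantoin. Its probe set 1422604_at read 13518, 11304 and 14609.5 in BPD livers, against 20716, 19155 and 18491 in GFP livers. The groups did not overlap, and the log2 difference was -0.87 ± 0.16 (limma adjusted p = 0.0046). Quantile normalization gave -0.24 ± 0.11, which did not pass (adjusted p = 0.15). Only 48 probe sets were brighter than Uox on average, and whether signals in this range rise in proportion to RNA was not tested.

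The branches and the livers can be set side by side. Relative to the GFP mean of each gene, the median of the 5 pyrimidine genes was -1.66, -1.83 and -0.998 in BPD livers 23, 28 and 36, and 0.20, -0.32 and 0.17 in GFP livers 22, 29 and 31. The median of the 3 purine genes was -0.46, -0.69 and -0.52 in the same BPD livers, and 0.41, -0.18 and -0.23 in the GFP livers. In each BPD liver the pyrimidine median was thus the lower one, and the difference between the branches was not tested. BPD liver 28 was the lowest of its group in 7 of the 8 genes, with Cda as the exception. BPD liver 36 was the highest in 6, namely Upp2, Dpyd, Dpys, Upb1, Xdh and Uox. Liver 36 also had the lowest summed macrophage (19055) and neutrophil (1886) markers among BPD livers, while its hepatocyte sum of 168841 lay between those of the other two. The part of these cells in the order of the livers was not tested.

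**Figure D3:**
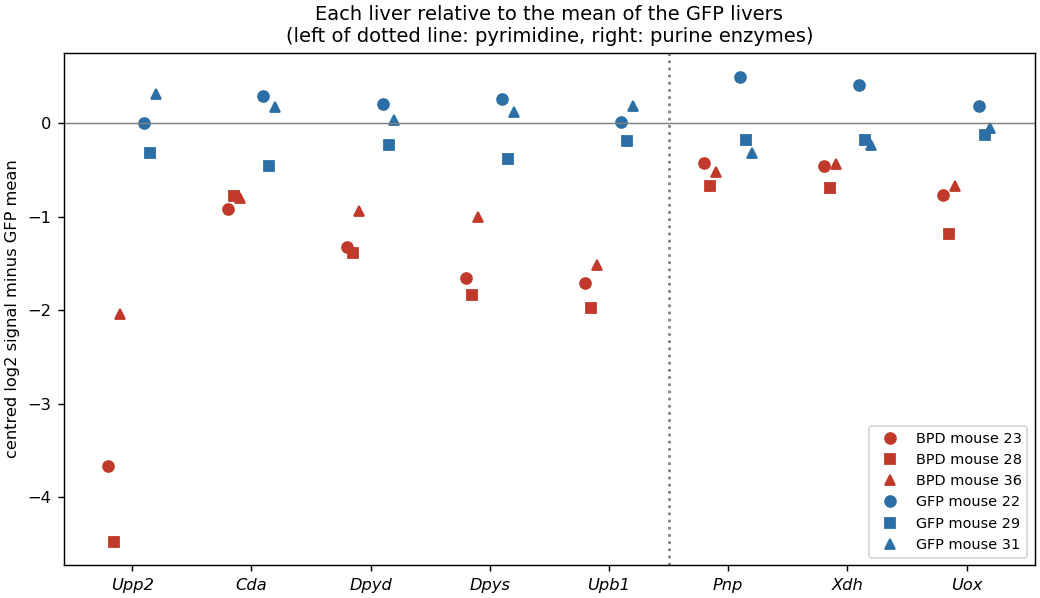
Centred log2 signal of each liver minus the mean of the GFP livers, for the 8 kept genes (BPD points left of GFP points, 1 point per mouse). BPD points for Upp2 lie between -4.47 and -2.03, the widest spread shown, and those of the purine genes Pnp and Xdh lie between -0.69 and -0.42, close under the GFP points.

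The genes whose profile over the 6 livers was most like that of Upp2 were Abhd3, a phospholipid hydrolase (Pearson r = 0.999), Hsd17b10, a mitochondrial dehydrogenase (0.998), and Pgm1, a phosphoglucomutase (0.998). Their own log2 differences were -1.24, -1.34 and -0.97, smaller than that of Upp2. The 6 livers form 2 groups and all genes were read on the same arrays, so the difference between the groups enters r, which is a description.

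The surrounding pathway was read from 4 lists with 49 other genes, of which 28 were bright enough to test. Of these 11 were called lower in BPD livers and 3 higher, where 22.2% of all genes were called lower and 8.75% higher. Their median difference was -0.36, and that of all genes was -0.22. The counts of the single lists that follow are to be read against the same shares, and nothing particular to a list is read from them. The 3 higher genes and 6 of the lower ones (Abat, Aldh6a1, Aox1, Slc17a1, Slc17a3 and Slc29a1) had the same call on the deposited scale and after quantile normalization. Leaving out BPD mouse 28 or GFP mouse 22 left 7 lower genes. Only 1 higher gene was called when mouse 23, 28 or 31 was left out, and 1 with the Gapdh 3' to 5' ratio of each array as a covariate. Shares of all genes called were not counted for the fits without a mouse or with the covariate. Nor was the share of all genes with the same call under all 3 scalings.

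Beyond Upb1, beta-alanine is passed on by Abat, a transaminase that also breaks down the transmitter GABA, and by Aldh6a1, a semialdehyde dehydrogenase shared with valine breakdown. Abat read 721, 718 and 1681 in BPD livers, against 3615, 2973 and 3417 in GFP livers, and fell by 2.08 ± 0.32 on the log2 scale (limma adjusted p = 0.0022). Aldh6a1 read 2202, 2104 and 3966 in BPD and 6313, 6239.5 and 6161 in GFP livers, and fell by 1.54 ± 0.25 (adjusted p = 0.0027). In both, BPD liver 36 was the highest of its group, as it was for Upp2. Of the 7 testable genes in this list 2 fell and 2 rose. The risers were the nucleotidases Nt5c2 (0.72 ± 0.20) and Nt5e (0.77 ± 0.23), which act mainly on purine nucleotides, Nt5c2 inside the cell and Nt5e at its surface.

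Of 5 testable other purine genes 2 fell and 0 rose. Aox1, an aldehyde oxidase related to Xdh, read 1427, 1983 and 2405 in BPD and 3737, 4237 and 3803 in GFP livers, and fell by 1.34 ± 0.19 (limma adjusted p = 0.0016). Aox3, a further aldehyde oxidase, fell by 0.76 ± 0.21, a call lost on the deposited scale (-0.45) and after quantile normalization (-0.22). Differences of the guanine deaminase Gda (-0.27 ± 0.22) and the allantoicase Allc (-0.18 ± 0.18) did not pass.

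Of 10 salvage enzymes, which return nucleosides and bases to nucleotides, 2 were called lower and 1 higher, shares close to those of all genes (22.2% and 8.75%). Dck, the deoxycytidine kinase, read 503, 584 and 496 in BPD livers, against 142, 154 and 145 in GFP livers, and rose by 1.43 ± 0.15 (limma adjusted p = 4.9e-04). Markers of dividing cells were higher in the same livers, and the part of such cells in the rise of Dck was not tested. The thymidine kinase Tk1 of the same list, named after its value was seen, was not called (-0.41 ± 0.18, limma adjusted p = 0.12). Adk, the adenosine kinase, fell by 0.73 ± 0.13, though with quantile normalization the difference was -0.07, which did not pass. Tk2, the mitochondrial thymidine kinase, fell by 0.74 ± 0.20, a call lost on the deposited scale (-0.44), and Dguok, the mitochondrial deoxyguanosine kinase, did not pass (-0.66 ± 0.24).

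Of 6 testable nucleoside and urate transporters 5 fell and 0 rose. Slc17a3 and Slc17a1, phosphate and urate carriers, fell by 1.11 ± 0.22 and 1.06 ± 0.24. The equilibrative nucleoside transporter Slc29a1 read 941, 1119 and 1224 in BPD and 1488, 1430.2 and 1925 in GFP livers, and fell by 0.85 ± 0.19 (limma adjusted p = 0.010). Abcg2, an exporter of urate and drugs, fell by 0.97 ± 0.25, and Slc2a9, the urate transporter GLUT9, named after its value was seen, by 0.62 ± 0.18. Neither passed on the deposited scale, where the differences were -0.67 and -0.32.

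**Figure D4:**
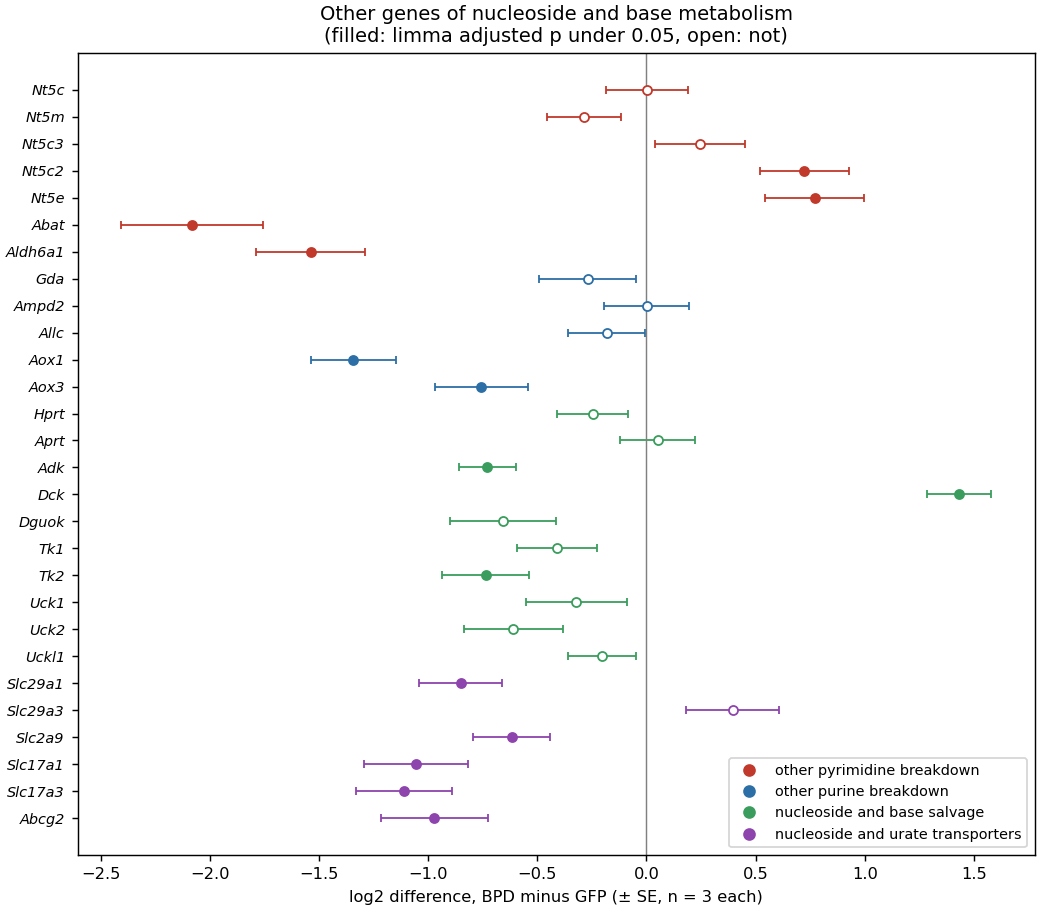
Log2 difference, BPD minus GFP, with its SE (n = 3 livers each) for the 28 testable genes of 4 lists, with filled points for genes called by limma. Abat and Aldh6a1 lie lowest at -2.08 and -1.54, Dck lies highest at 1.43, and 5 of the 6 transporters lie below 0 with filled points.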

How the data were processed

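Liver RNA of 6 mice was measured on 6 one-colour arrays. Per the submitters' processing notes, the deposited signal intensities were made by the authors with MAS5, 1 value per probe set and array on a linear scale. No version or filter was found there (not given in the sources used here). All 6 columns were used and 0 left out. Of 22690 probe sets, 64 controls were removed. Symbols came from the platform annotation, and all 10 members matched the gene table of GRCm38.p6 under the same symbol.

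Values were analysed as log2(signal + 16.3), a constant of 10% of the median, which understates differences of dim probe sets, and each array was centred on its median. Probe sets whose mean over all arrays lay above the 40th percentile were kept (13575), and the kept probe set with the highest mean stood for a gene. BPD was compared with GFP by limma 3.58.1 in R 4.3.3 (lmFit, eBayes with an intensity trend, 2-sided, 4 residual degrees of freedom), with Benjamini-Hochberg adjustment over the kept probe sets and a threshold of 0.05. The script was tested on simulated data. The number of arrays limits the precision.

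Members, gene lists and marker lists were chosen with earlier results of these data known. Beside all members, up to 4 genes with the smallest p of each pathway list were named, and the 3 genes most like Upp2; for Upp1 no such genes were sought, since it was not kept. Other scalings, constants, filters, eBayes settings, array weights, probe set choices, an RNA quality covariate and omission of each mouse were tried.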

Additional observations from a re-analysis of the deposited data

How the results depend on the processing

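Over the 8 kept genes and up to 17 alternatives each, 128 of 135 differences stayed on their side of the threshold, 6 lost it, 1 gained it and 0 turned their sign. The calls lost were those of Cda (5 alternatives) and Uox (quantile normalization, -0.24), and array weights let Xdh pass (-0.57, adjusted p = 0.048). Leaving out 1 mouse gave 5 to 6 members called lower and 0 higher, 7 to 12 other pathway genes lower and 1 to 3 higher. The shares of all genes called were not counted for these fits. Other pathway genes lower were 7 on the deposited scale, where 11.1% of all genes were called lower. Those higher were 1 when probe sets with IDs ending in _s_at, _x_at or _a_at were dropped, where 19 genes could be tested. With the Gapdh covariate 1 was higher. Shares of all genes were not counted with those probe sets dropped or with the covariate. Centring on hepatocyte markers, chosen after seeing the data, gave 3 members lower and 2 higher, and 2 other pathway genes lower and 16 higher. On that scale 2.44% of all genes were called lower and 73.5% higher. The same centring turned Cda (0.16), Uox (0.12), Pnp (0.45) and Xdh (0.46) positive. That scaling shifts all genes of an array by 1 value. For the other changes the cause was not tested. No paired analysis was possible because the groups share no mouse numbers. Upp1 and Ada were near background, and a difference in them could be missed.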

Other observations

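A pair of dim pathway genes, chosen after their values were seen, had higher deposited signals in BPD livers but were not tested after the filter. Deposited signals are not centred, and the median signal of all probe sets was also higher on BPD arrays (174 to 197) than on GFP arrays (135 to 157). Ampd3, an AMP deaminase of red cells and other tissues, read 150.4, 169.6 and 113 in BPD livers, against 63.1, 42.9 and 24.7 in GFP livers. Of 4 erythroid markers Slc4a1 and Tfrc were called higher and Alas2 lower in the same BPD livers, and their part in the Ampd3 signal was not tested. Nt5c3b, a cytosolic nucleotidase, read 129 (BPD liver 23), 101 (28) and 89.3 (36), against 36.0, 36.2 and 24.0 in GFP livers.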
